A study of Sus scrofa with 10 samples.

Results

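The 10 genes described here are widely used to recognise fibroblasts and other stromal cells: PDGFRA, PDGFRB, THY1, FAP, VIM, TCF21, NR2F2, CD34, BST1 and S100A4. They were picked by gene name from the 27376 rows of a count table of pig (Sus scrofa) testis and grafts. The list was drawn up with earlier results of these data known. It was therefore in part selected on the measured GF versus FO differences, which had already been given for NR2F2, BST1, S100A4 and CD34, and the differences between those groups are given below gene by gene as a description, with no test.

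The study asked, per its design text, whether spermatogonial germ cells influence how testicular tissue is rebuilt after transplantation. Control testis (2 libraries) was tissue titled 5D, a code left without explanation in the labels. FO grafts (4 libraries) came from testicular fibroblasts alone, and GF grafts (4 libraries) from germ cells together with testicular fibroblasts. In both graft groups primary cells in high concentrate Matrigel, a basement membrane gel, had been injected into the dorsal skin of a mouse strain spelled SKID in the labels, and the tissue was taken 6 months later. The control libraries carry the cell type and growth fields of the GF grafts, so that the titles alone set them apart. Nothing in the labels says that the libraries of a group came from separate animals or cultures, and p-values then measure only the spread between these libraries, which may be technical. Genes were counted under pig names, and how reads from mouse host cells were handled was not tested.

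Fibroblasts are the cells that make and remodel connective tissue, and no single gene marks all of them. PDGFRA and PDGFRB are receptor tyrosine kinases that dimerise when they bind platelet-derived growth factors and signal through PI3 kinase and other pathways. In the testis PDGFRA, TCF21 and NR2F2 mark interstitial progenitors from which Leydig cells and other stromal cells derive, whereas PDGFRB is also strong in pericytes, CD34 in endothelium, VIM in Sertoli cells, and S100A4 in immune cells.

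The FO libraries held 4033509 to 4887878 counts and the GF libraries 2915534 to 4917325, beside 5844944 and 7013911 for control testis. GF 3 and GF 4 had the lowest totals, and along the main axis of variation (46.3% of the variance) they stood farthest from the other libraries. Levels are given as CPM, counts per 1000000 counts after TMM scaling. A gene without counts was read against a floor of 3 counts, or 0.453 to 1.04 CPM depending on the library. Differences were tested with edgeR over all genes, and "called" means a Benjamini-Hochberg adjusted p under 0.05. Markers of other cells also differed between the groups and are given after the genes. Because these are bulk samples, fewer cells of a type and less RNA per cell cannot be told apart.

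The 10 genes did not move as 1 group. NR2F2, BST1 and S100A4 had their highest levels in FO grafts, PDGFRB, THY1 and FAP had theirs in control testis, and PDGFRA, VIM and CD34 were similar in control testis and FO grafts and lower in GF grafts. TCF21 had few counts in every library. All 10 were tested in each comparison. Between GF and FO, 6 were called lower, none higher, and 4 were not called, where 30.5% of 13782 genes were called (17.6% higher and 13.0% lower; 57.5% of the calls were higher, or 69.1% with total-count scaling). The median log2 difference of the 10 was -1.34, beside -0.02 for all genes tested, and nothing is read from these counts because the comparison helped to choose the genes. Between FO and control, 2 were called higher and 2 lower, where 18.7% of 15877 genes were called (8.12% higher and 10.6% lower), and the median was 0.03, beside -0.04 for all genes. Between GF and control, 6 were called lower and none higher, where 25.8% were called (14.0% higher and 11.8% lower), and the median was -1.46, beside 0.03. The count of 0 higher in both GF comparisons was also 0 at an unadjusted p under 0.05 with edgeR, and 0 with DESeq2. That adds no support, because the genes were chosen in part on their GF and FO levels. The 3 comparisons share libraries, so their values are not independent of each other. The FO and GF libraries that helped to choose the genes also enter both comparisons with control. Counts, medians and p-values against control are therefore not free of that choice, most directly for NR2F2, BST1, S100A4 and CD34. Counts of calls against control rest on a pair of control libraries: without control 2, 2 of the 10 genes were called in FO versus control, where 4.71% of all genes tested were, and 3 in GF versus control, where 6.76% were.

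**Figure D1:**
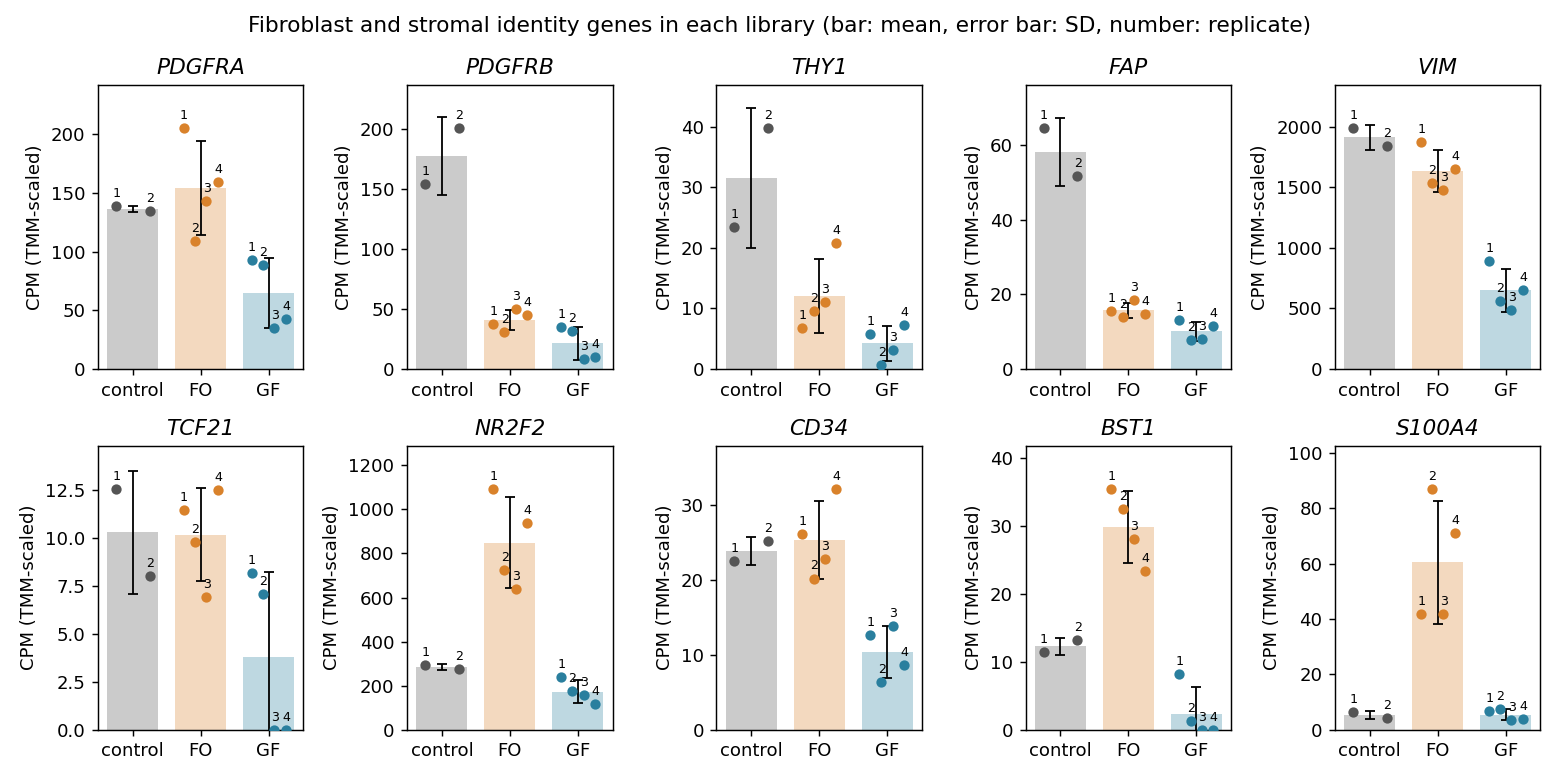
Level of each gene (y axis, TMM-scaled CPM, axes from 0) in control testis, FO grafts and GF grafts (x axis); bars are means, error bars SD, and numbered points are libraries, with SD bars that reach below 0 for TCF21 and BST1 ending at the axis. S100A4, NR2F2 and BST1 stand highest in all 4 FO libraries, and PDGFRB and FAP stand highest in both control libraries.

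PDGFRA and PDGFRB, the platelet-derived growth factor receptors, behaved differently from each other. PDGFRA (gene 100627123, protein coding, chromosome 8, 40966568 to 41021440, Sscrofa11.1) was at 139 and 135 CPM in control 1 and 2, at 205, 109, 143 and 159 in FO 1 to 4, and at 92.6, 88.3, 35.2 and 42.2 in GF 1 to 4. Every GF library lay below every FO and control library, and the FO libraries straddled the control values. The GF mean was 64.6 ± 30.1 CPM (SD, n = 4) against 154 ± 39.8 in FO (SD, n = 4), a log2 difference of -1.25 ± 0.33 (SE). Against control (137 ± 2.63, SD, n = 2), FO differed by 0.17 ± 0.38 (adjusted p = 0.802, edgeR) and GF by -1.07 ± 0.37 (adjusted p = 0.0472, edgeR). The GF call against control was lost when either control library, any FO library, GF 3 or GF 4 was left out, with adjusted p = 0.0546 to 0.195 (edgeR). It was also lost with total-count scaling (adjusted p = 0.0958), thinning to the lowest total (0.0578), a replicate block (0.0892), a fold threshold of 1.5 (0.143) and only those groups in the fit (0.122), and without both GF 3 and GF 4 the log2 difference was -0.61.

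PDGFRB (gene 102166564, chromosome 2, 151155753 to 151192818) was at 154 and 201 CPM in control testis, at 37.1, 30.9, 49.9 and 45.1 in FO, and at 34.9, 31.8, 8.63 and 9.68 in GF. All 8 grafts lay far below both controls, and GF 1 and GF 2 lay within the FO range. FO fell by 2.12 on the log2 scale against control (SE 0.45, adjusted p = 0.00582, edgeR), a call that ended without control 2 (adjusted p = 0.0804). GF fell by 3.03 (SE 0.46, adjusted p = 0.000564), or by 2.42 without GF 3 and GF 4. Between GF and FO the log2 difference was -0.93 ± 0.43, or -0.30 without GF 3 and GF 4.

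The balance of the receptor transcripts thus differed between grafts and testis. Per PDGFRB count, PDGFRA had 0.897 and 0.672 counts in control testis, against 2.87 to 5.53 in FO grafts and 2.65 to 4.36 in GF grafts. These are ratios of counts within a library, so that scaling between libraries does not enter them, and only their change between groups is described, not the level of one gene against the other. Every graft lay above both controls, and the FO and GF ranges overlapped.

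Among the surface glycoproteins and enzymes, THY1 and FAP were highest in control testis. THY1 (CD90, a GPI-anchored glycoprotein of fibroblasts and other cells; gene 100271931, chromosome 9, 46607022 to 46612691) was at 23.4 and 39.7 CPM in control, at 6.69, 9.57, 11.12 and 20.8 in FO, and at 5.79, 0.722, 3.11 and 7.26 in GF. The GF values rested on 27, 4, 9 and 21 counts, and GF 4 overlapped FO 1. GF differed from FO by -1.53 ± 0.63 on the log2 scale. GF fell by 2.93 against control (SE 0.64, adjusted p = 0.00538, edgeR), a call that ended without control 2 (adjusted p = 0.0847). FO differed from control by -1.39 ± 0.62 (adjusted p = 0.142, edgeR), although the groups did not overlap, and passed when the fit held only those libraries (adjusted p = 0.0101).

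FAP (fibroblast activation protein, a membrane serine protease of activated fibroblasts; gene 100736572, chromosome 15, 68831281 to 68902416) was at 64.5 and 51.7 CPM in control, at 15.6, 13.9, 18.5 and 14.6 in FO, and at 13.1, 7.76, 7.94 and 11.4 in GF. The 3 groups did not overlap. FO fell by 1.89 on the log2 scale against control (SE 0.32, adjusted p = 0.00119, edgeR) and GF by 2.53 (SE 0.32, adjusted p = 0.000175). The GF versus FO difference was -0.64 ± 0.34.

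CD34 (a sialomucin of endothelium, haematopoietic progenitors and some stromal cells; gene 397160, chromosome 9, 134912793 to 134937763) was at 22.6 and 25.2 CPM in control, at 26.2, 20.2, 22.9 and 32.2 in FO, and at 12.6, 6.32, 13.8 and 8.64 in GF. Every GF library lay below the rest, while control and FO overlapped (FO versus control 0.09 ± 0.37, adjusted p = 0.907, edgeR). GF differed from FO by -1.29 ± 0.35. GF was called lower than control (-1.21 ± 0.37, adjusted p = 0.0279, edgeR), a call that ended without control 1 (adjusted p = 0.120) and without control 2 (adjusted p = 0.189), with only those groups in the fit (0.1175), with thinning (0.0679) and with a fold threshold of 1.5 (0.0893).

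BST1 (CD157, a GPI-anchored ectoenzyme of NAD metabolism on stromal and myeloid cells; gene 100625942, chromosome 8, 11011131 to 11043622) was at 11.4 and 13.1 CPM in control, at 35.4, 32.4, 28.1 and 23.3 in FO, and at 8.14, 1.26, 0 and 0 in GF. The 3 groups did not overlap, and a count of 0 in GF 3 and GF 4 allows up to 1.04 CPM in each, by counting error only. GF differed from FO by -3.54 ± 0.86 on the log2 scale. That size depended on single libraries: it was -5.67 without GF 1 and -2.71 without GF 3 and GF 4. FO differed from control by 1.28 ± 0.89 (adjusted p = 0.359, edgeR) and GF by -2.25 ± 0.88 (adjusted p = 0.0738). Both passed in other fits: FO versus control without GF 3 and GF 4 (adjusted p = 0.0207) or with only those groups (adjusted p = 0.000624), and GF versus control without GF 1 (-4.39, adjusted p = 0.000857, edgeR) or without GF 3 and GF 4 (-1.44, adjusted p = 0.0424).

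VIM (vimentin, the intermediate filament protein of mesenchymal cells; gene 100522394, chromosome 10, 43516441 to 43526172) was at 1986 and 1838 CPM in control, at 1875, 1534, 1475 and 1652 in FO, and at 892, 559, 485 and 654 in GF. All GF libraries lay below all others, and FO overlapped control (FO versus control -0.23 ± 0.26, adjusted p = 0.598, edgeR). GF differed from FO by -1.33 ± 0.23. VIM fell by 1.56 in GF against control (SE 0.25, adjusted p = 0.000768, edgeR), and no alternative that was run ended that call.

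S100A4 (fibroblast-specific protein 1, a calcium-binding protein also found in immune cells; gene 100156358, chromosome 4, 96088102 to 96091160) was at 6.27 and 4.38 CPM in control, at 41.8, 87.0, 41.9 and 71.0 in FO, and at 6.64, 7.40, 3.45 and 3.80 in GF. The FO libraries stood apart from all others, and GF straddled the control values (0.04 ± 0.44, adjusted p = 0.959, edgeR). FO was 3.50 ± 0.49 higher than control on the log2 scale (adjusted p = 0.000342, edgeR), from 5.32 ± 1.33 (SD, n = 2) to 60.4 ± 22.4 CPM (SD, n = 4). GF, at 5.33 ± 1.99 CPM (SD, n = 4), differed from FO by -3.46 ± 0.38. No alternative that was run ended the call of FO against control.

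Of the transcription factors, NR2F2 (COUP-TFII, an orphan nuclear receptor of interstitial progenitors and veins; gene 100153983, chromosome 7, 83076119 to 83090250) was at 293 and 277 CPM in control, at 1093, 724, 637 and 940 in FO, and at 240, 175, 158 and 117 in GF. The 3 groups did not overlap. NR2F2 shares its place with the protein coding gene LOC102160410, and since the use of strand in counting is not given, its reads could be split with that gene. FO rose by 1.58 ± 0.32 on the log2 scale against control (adjusted p = 0.00460, edgeR), a call that ended without control 1 (adjusted p = 0.0625) or control 2 (adjusted p = 0.0841). GF differed from control by -0.72 ± 0.29 (adjusted p = 0.0864, edgeR) and passed without GF 1 (adjusted p = 0.0228). GF differed from FO by -2.30 ± 0.27.

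TCF21 (a basic helix-loop-helix factor of mesenchymal progenitors; gene 100152962, chromosome 1, 29975280 to 29978273) was at 12.5 and 8.01 CPM in control, at 11.4, 9.79, 6.92 and 12.5 in FO, and at 8.14, 7.04, 0 and 0 in GF. GF 1 and GF 2 lay within the range of the other groups, and GF 3 and GF 4 had no count. GF versus FO gave -1.35 ± 0.91, or -0.43 without GF 3 and GF 4 and -1.97 without GF 1. FO versus control gave -0.02 ± 0.99 (adjusted p = 1.00, edgeR) and GF versus control -1.35 ± 0.98 (adjusted p = 0.330), or -0.45 without GF 3 and GF 4 and -1.96 without GF 1. Neither comparison with control was called.

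**Figure D2:**
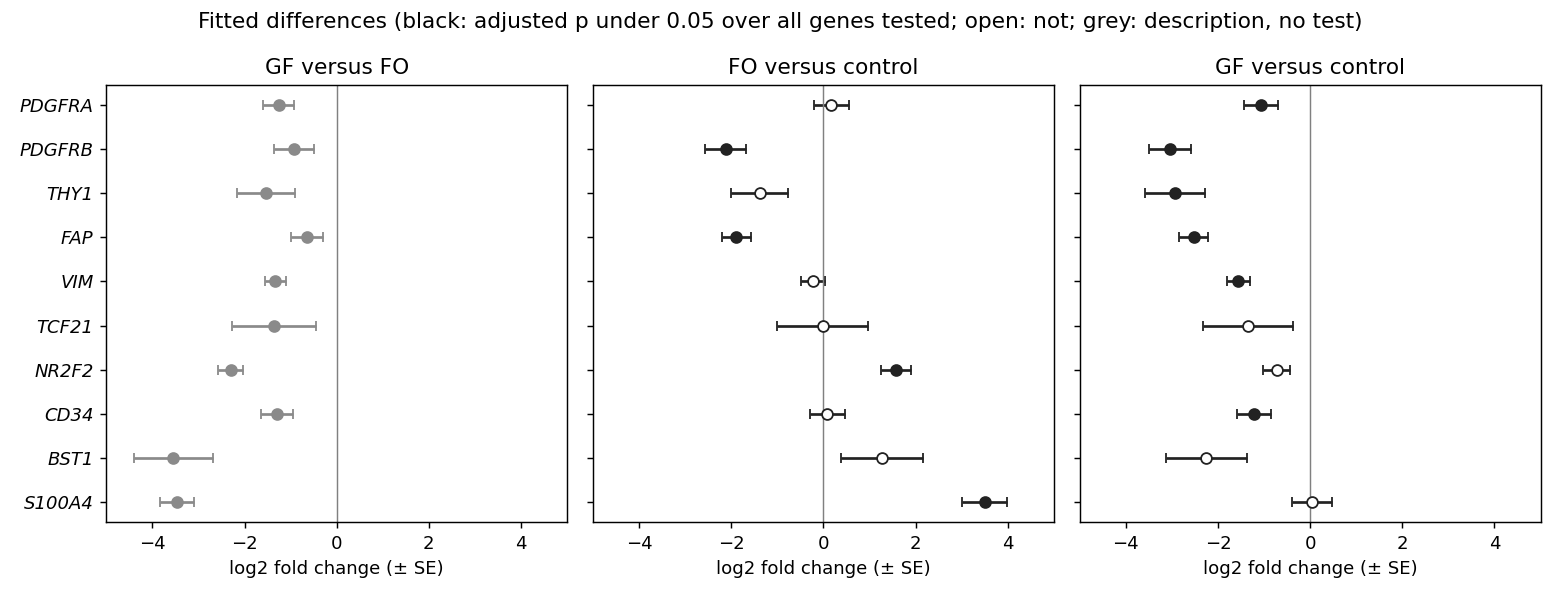
Fitted log2 fold change (x axis, ± SE from edgeR) of each gene (y axis) in GF versus FO, FO versus control and GF versus control; black points have an adjusted p under 0.05 over all genes tested, open points do not, and the grey GF versus FO points carry no test. All 10 points lie below 0 in GF versus FO, whereas NR2F2 (1.58) and S100A4 (3.50) lie above 0 and PDGFRB (-2.12) and FAP (-1.89) below it in FO versus control.

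Within the GF grafts the libraries were not alike. PDGFRA, PDGFRB, TCF21, NR2F2, BST1 and S100A4, 6 of the 10, had both GF 3 and GF 4 below both GF 1 and GF 2, an order that 32.1% of the 15877 genes tested also showed. THY1, FAP, VIM and CD34 did not share it. For FAP, GF 2 was lowest at 7.76 CPM, and for THY1, GF 4 was highest at 7.26 CPM.

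Scaled to VIM in the same library, NR2F2 was highest in FO grafts, a difference from GF that had helped to choose the gene. NR2F2 had 147 and 151 counts per 1000 VIM counts in control testis, 583, 472, 432 and 569 in FO, and 269, 313, 325 and 178 in GF. Every FO library lay above every GF library, and every GF library above both controls. In CPM, NR2F2 lay below both controls in every GF library (117 to 240, against 277 and 293). The order of GF and control thus turned with the denominator, as VIM averaged 648 CPM in GF and 1912 in control. PDGFRA per 1000 VIM counts did not separate the groups: it was 69.7 and 73.3 in control, 71.3 to 109 in FO and 64.5 to 158 in GF. Both genes are compared here with the same denominator and only between libraries.

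**Figure D3:**
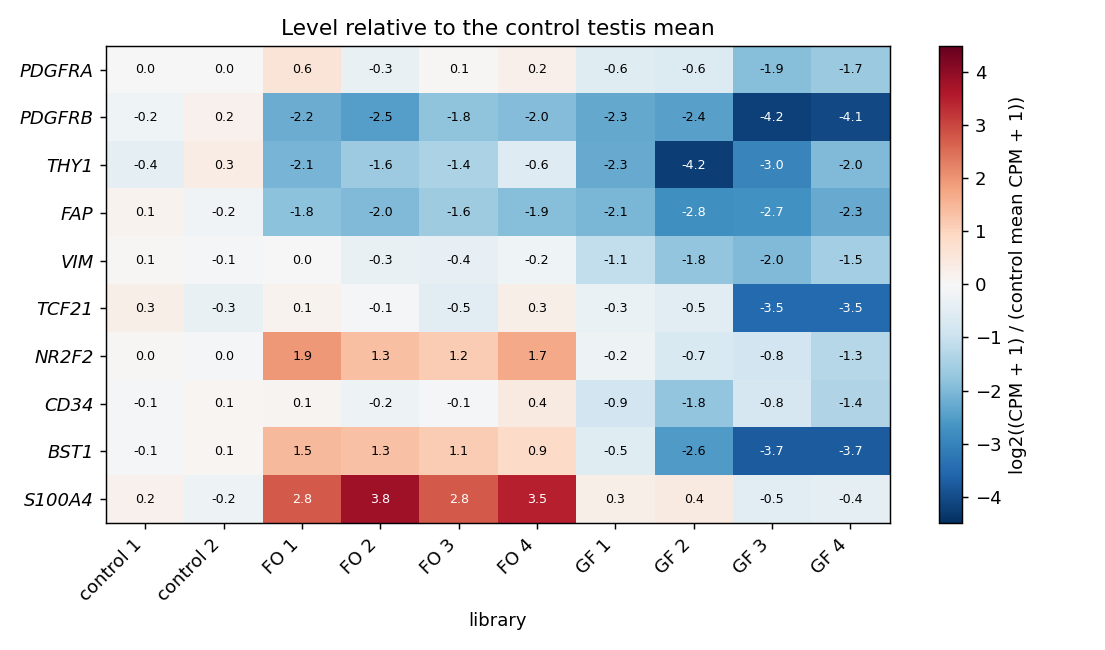
Level of each gene (rows) in each library (columns) as log2 of (CPM + 1) over (mean control CPM + 1), given in each cell and by colour from blue (lower) to red (higher). S100A4, NR2F2 and BST1 are red across the 4 FO columns, and PDGFRB, THY1 and FAP are blue across all 8 graft columns.

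Across the 10 libraries, log2 CPM of BST1 and PDGFRA had a Pearson r of 0.93, PDGFRA and TCF21 0.92, and NR2F2 and S100A4 0.92. The lowest was -0.09, between FAP and S100A4. These values describe libraries that fall into 3 groups and are given without a test. By the same measure, among tested genes with an average log2 CPM of at least 4, NR2F2 was most like BCHE (0.99), RPL17 and GPD2 (both 0.98), and S100A4 most like RC3H2, FAM111A and TMEM51 (all 0.98). BST1 was most like TMSB4X, CACHD1 and PCBP1 (all 0.99). PDGFRA was most like UBQLN2 (0.98), NID1 and UBE4B (both 0.97), and PDGFRB most like FTH1 (0.99), PSMB4 and NREP (both 0.98). THY1 was most like DEPTOR (0.96), GRB10 (0.95) and PTGFRN (0.94), and FAP most like PPP1R1A (0.98), FAM198B and PLCB1 (both 0.97). VIM was most like CLEC18C and GABPB2 (both 0.99) and UTRN (0.98), TCF21 most like FAM114A2 (0.99), SLC18B1 and HNRNPA3 (both 0.98), and CD34 most like TEAD2, ARHGAP10 and CCND1 (all 0.97).

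The ligands and signalling partners of the PDGF receptors were described next, from lists chosen with earlier results known. The same holds for the related lists that follow. Counts, medians and p-values of these lists are therefore a description and add no independent support to the differences of the genes above. Over all genes tested, 30.5% were called in GF versus FO, 18.7% in FO versus control and 25.8% in GF versus control. The ligand list had 5 genes, of which 4 were in the count table and tested: PDGFA, PDGFC, PDGFD and the receptor-like PDGFRL. PDGFB was not among these 4. Of the 4, 2 were called lower in GF than FO. PDGFRL differed by -2.43 ± 0.47 (adjusted p = 0.00292, edgeR), or by -1.82 without GF 3 and GF 4. PDGFC differed by -1.60 ± 0.54 (adjusted p = 0.0407, edgeR). The PDGFC call was lost without any FO library, GF 1 or GF 3 (adjusted p = 0.0540 to 0.0969, edgeR). PDGFD, a ligand of PDGFRB, was higher than control in FO (155 ± 14.7 CPM, SD, n = 4, against 51.8 ± 3.05, SD, n = 2; log2 1.58 ± 0.34, adjusted p = 0.00583, edgeR) and in GF (201 ± 71.7 CPM; log2 1.96 ± 0.34, adjusted p = 0.00143). PDGFA, a ligand of PDGFRA, was lower in FO (-1.58 ± 0.52, adjusted p = 0.04997, edgeR) and in GF (-1.87 ± 0.53, adjusted p = 0.0197; -2.59 without GF 4). No other gene of the 4 tested was called against control, so each graft group had 1 higher and 1 lower of 4.

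Of the receptor signalling genes, 23 were tested between GF and FO, with 1 called higher and 5 lower (median -0.23). Over all genes tested 30.5% were called, so nothing about the list is read from these counts. The same holds for its counts against control, where 18.7% (FO) and 25.8% (GF) of all genes were called. EGR1, an early response factor, fell by 1.44 (SE 0.31, adjusted p = 0.00482, edgeR), PIK3R1, a PI3 kinase subunit, fell by 1.00 (SE 0.23, adjusted p = 0.00761), and the kinase SRC rose by 1.28 (SE 0.32, adjusted p = 0.00989). Against control, 3 of 24 were higher and 3 lower in FO (median -0.07), among them the adaptor GRB2 (-2.46), EGR1 (1.92) and AKT1 (-1.24). In GF 2 were higher and 5 lower (median -0.35), among them SRC (2.57) and the PI3 kinase subunit PIK3CA (-1.65). The genes named here had an adjusted p from 0.000927 to 0.0148 with edgeR.

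Broadly shared fibroblast genes, mostly of the extracellular matrix, were all tested. This list too was chosen with earlier results known, so nothing about the list is read from its counts and medians. Of 23, 2 were called higher and 10 lower in GF than FO (median -0.77, beside -0.02 for all genes). The actin-severing protein GSN was at 188 ± 91.6 CPM in GF and 995 ± 188 in FO (SD, n = 4 each; -2.41 ± 0.31, adjusted p = 0.000358, edgeR), the proteoglycan DCN differed by -2.06 and the collagen chain COL1A2 by -1.55. Against control, 4 were higher and 5 lower in FO (median 0.43), and 4 were higher and 11 lower in GF (median -0.70). The chemokine CXCL12 was at 377 ± 20.4 CPM in control (SD, n = 2), 49.0 ± 7.17 in FO and 34.6 ± 5.75 in GF (SD, n = 4 each), and it fell by 2.94 in FO (SE 0.24, adjusted p = 8.89e-06, edgeR) and by 3.45 in GF (SE 0.24, adjusted p = 3.51e-06). DPT, a dermatan sulfate binding matrix protein, fell by 3.52 in FO and by 3.50 in GF, and COL3A1 fell by 2.82 in GF (adjusted p = 8.64e-05, 9.97e-05 and 0.000325, edgeR).

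Close relatives of the 10 genes included a calcium-binding protein that rose with S100A4. S100A6 was at 16.3 ± 2.01 CPM in control (SD, n = 2), 503 ± 81.2 in FO and 110 ± 55.7 in GF (SD, n = 4 each). It rose by 4.95 in FO against control (SE 0.55, adjusted p = 6.49e-05, edgeR) and fell by 2.19 in GF against FO (SE 0.37, adjusted p = 0.00139), beside S100A10 (-2.27) and the CD34 relative PODXL (-2.47, adjusted p = 9.79e-05). In all, 1 of 24 relatives was called higher and 9 lower in GF than FO (median -0.58). Against control, 8 of 29 were higher and 4 lower in FO (median 0.02), and 4 were higher and 10 lower in GF (median -0.51). Nothing is read from these counts or from those of the related lists below. The shares called over all genes tested were 30.5% in GF versus FO, 18.7% in FO versus control and 25.8% in GF versus control. KIT, a receptor kinase related to the PDGF receptors, was at 713 ± 2.42 CPM in control, 70.1 ± 19.1 in FO and 73.5 ± 12.8 in GF (-3.34 and -3.28, adjusted p = 8.89e-06 and 9.66e-06, edgeR). LMNB1, a nuclear lamin of the intermediate filament family, fell by 2.23 in FO and by 2.41 in GF, and MSC, a relative of TCF21, fell by 4.78 in GF. DPP4, the closest relative of FAP, had 70 counts in control testis and none in the GF libraries, and against a floor of 3 counts over the GF group it was at least 29.4-fold lower (at least 16.1-fold without control 1). CD38, the other ADP-ribosyl cyclase beside BST1, had 36 counts in control and none in FO, at least 16.7-fold lower against 3 counts over that group; it was singled out after its values were seen. BST1 itself stood higher in all 4 FO libraries than in control, without being called.

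Among mesenchymal transcription factors, some were called higher in FO grafts than in control testis, as NR2F2 was. KLF4, a zinc finger factor, was at 40.8 ± 3.14 CPM in FO (SD, n = 4) and 3.59 ± 1.22 in control (SD, n = 2; log2 3.50 ± 0.64, adjusted p = 0.00217, edgeR), and MEIS2, a homeodomain factor, rose by 1.98. In all 4 of 24 were higher and 2 lower (median 0.21). Between GF and FO 1 of 21 was higher and 8 lower (median -1.17), led by TCF4 (-1.96 ± 0.22, adjusted p = 0.000170, edgeR), MEIS2 (-2.56) and MEIS1 (-1.78). In GF against control 3 of 24 were higher and 3 lower (median -0.61), among them TCF4 (-2.02), TWIST1 (-2.86) and EBF1 (1.22).

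Of other stromal surface antigens, PDPN (podoplanin) was at 12.6 ± 0.663 CPM in control (SD, n = 2), 116 ± 31.4 in FO and 26.9 ± 12.3 in GF (SD, n = 4 each), and it rose by 3.20 in FO against control (adjusted p = 0.000350, edgeR) and fell by 2.09 in GF against FO (adjusted p = 0.00110). NT5E (CD73, which makes adenosine) rose by 1.39 in FO and by 2.59 in GF, and CD44, the hyaluronan receptor, fell by 2.81 in FO and by 3.98 in GF. ALCAM and CD9 were lower in GF than FO by -2.37 and -2.27. The counts were 5 of 17 higher and 1 lower in FO versus control (median -0.32), 1 higher and 5 lower in GF versus control (median -0.54), and 1 of 15 higher and 5 lower in GF versus FO (median -0.33).

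Among testis interstitial progenitor genes, LHX9, a gonadal homeobox factor, was at 88.6 ± 2.23 CPM in control (SD, n = 2), 168 ± 51.8 in FO and 26.1 ± 9.05 in GF (SD, n = 4 each), and GF was lower than FO (-2.68 ± 0.33, adjusted p = 0.000280, edgeR) and lower than control (-1.75 ± 0.35, adjusted p = 0.00288). ITGAV, an integrin chain, fell by 1.74 in GF against FO. In FO against control WT1 rose by 2.17, PTGFR, a prostaglandin receptor, rose by 2.14, and HEYL, a Notch target, fell by 2.58; in GF against control PTGFR rose by 1.98 and NES fell by 1.83. The counts were 3 of 16 higher and 6 lower in GF versus FO (median -0.37), 3 of 18 higher and 3 lower in FO versus control (median -0.46), and 3 higher and 7 lower in GF versus control (median -0.78).

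Several of the named calls against control needed both control libraries. In FO versus control, AKT1, CD44, EGR1, MEIS2, NT5E, PDGFA and PDGFD lost theirs without either control library, and KLF4 and PTGFR without control 2, with adjusted p = 0.0517 to 0.253 (edgeR). PDGFA also lost its call without any FO library, GF 1 or GF 2. In GF versus control, EBF1, PDGFA, PIK3CA, PTGFR and TWIST1 lost theirs without either control library, and NES without control 2, with adjusted p = 0.0530 to 0.229 (edgeR). With only those groups in the fit, EBF1, PDGFA and TWIST1 lost theirs as well (adjusted p = 0.0542, 0.0731 and 0.0850, edgeR).

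**Figure D4:**
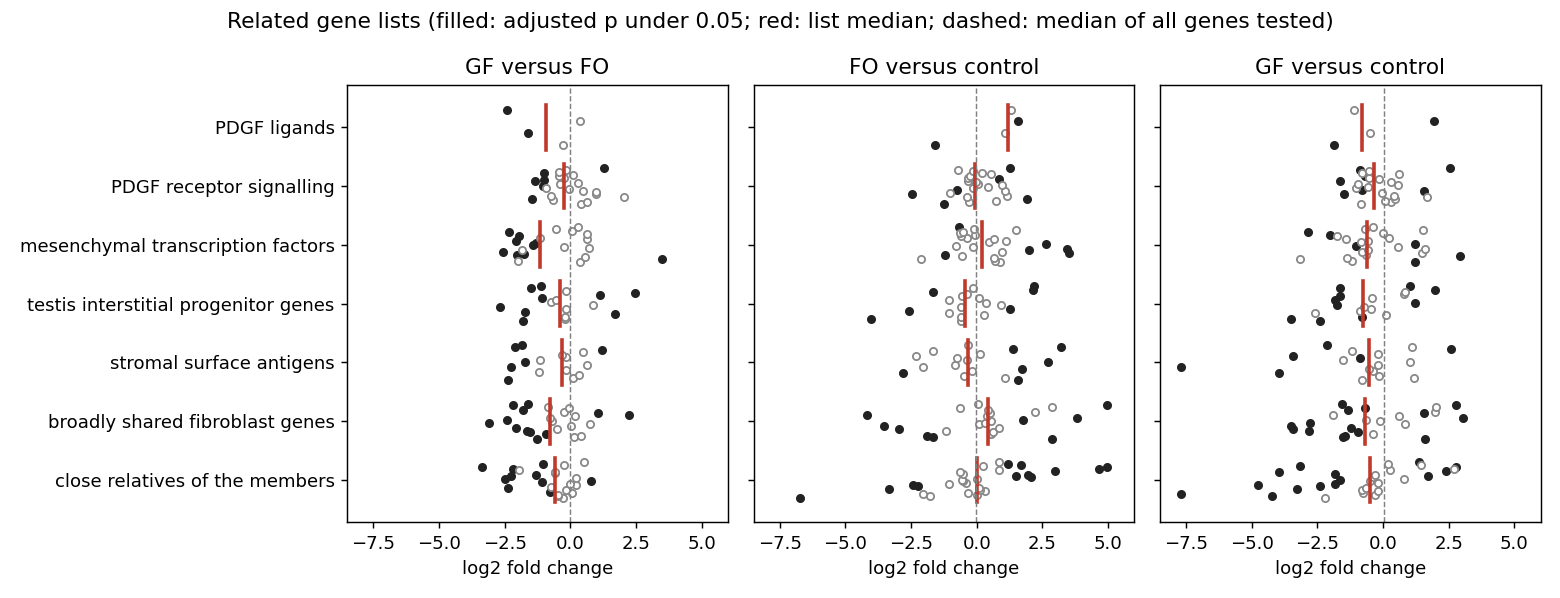
Log2 fold change (x axis) of every tested gene of the 7 related lists (y axis) in the 3 comparisons; filled points have an adjusted p under 0.05, red bars are list medians and the dashed line is the median of all genes tested. All 7 medians lie below the dashed line in GF versus FO and in GF versus control. The lists were chosen with earlier results known, so their medians add no independent support. The leftmost points in the comparisons with control are fitted values of CD38 and DPP4, which are at 0 in the lower group.

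Markers of other cell types moved with the same groups, and their part in the results above was not tested. For the counts of calls below, the shares over all genes tested were 17.6% higher and 13.0% lower in GF versus FO. In FO versus control they were 8.12% higher and 10.6% lower. Myeloid markers (15 genes), relevant to S100A4 and BST1, summed to 734 and 785 CPM in control, 200 to 408 in FO and 74.0 to 105 in GF, with 1 to 8 of the 15 at 0 in a GF library; of those tested, 7 of 9 were called lower in GF than FO and 8 of 14 lower in FO than control. The list was not uniform: CD14 was at 8.48 to 13.6 CPM in FO and 3.79 and 7.86 in control, and MRC1 averaged 79.6 CPM in FO and 50.3 in control, neither of them called between FO and control. Endothelial markers (15 genes), relevant to CD34 and NR2F2, summed to 397 and 438 CPM in control, 137 to 349 in FO and 63.2 to 119 in GF, with 1 to 6 at 0 in a GF library and 1 of 11 called lower in GF than FO. That gene was EMCN, at 50.5 to 79.6 CPM in FO, 1.04 to 11.8 in GF, and 12.5 and 14.5 in control. The separation of the FO and GF sums depends on EMCN. It was called higher in FO than control (2.31 ± 0.57, adjusted p = 0.0124, edgeR), where 3 other endothelial markers were called lower. Pericyte markers (7 genes in the table), relevant to PDGFRB, summed to 85.4 and 88.5 CPM in control, 34.4 to 89.0 in FO and 24.0 to 42.5 in GF.

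Sertoli markers (9 genes), relevant to VIM, summed to 4625 and 5170 CPM in control, 4246 to 8296 in FO and 14590 to 45284 in GF. Most of that sum was CLU; the other 8 genes summed to 1018 and 1098 CPM in control, 352 to 580 in FO and 891 to 1351 in GF, where the GF range overlapped control. Germ cell markers (10 genes) summed to 118 and 125 CPM in control, 7.25 to 10.4 in FO and 526 to 2867 in GF, where all 10 were called higher than in FO. Leydig markers (7 genes) summed to 14093 and 16710 CPM in control, 490 to 3747 in FO and 1430 to 3096 in GF. Smooth muscle and myoid markers (9 genes) summed to 413 and 462 CPM in control, 327 to 463 in FO and 681 to 1001 in GF. The FO grafts labelled testicular fibroblast thus held PDGFRA and VIM at levels that overlapped those of control testis, together with some Sertoli and Leydig transcripts. Of those tested, 2 of 8 Sertoli and 6 of 7 Leydig markers were called lower in FO than control, and 0 higher. Over all genes tested, 10.6% were called lower and 8.12% higher in that comparison. AMH was at 5.85 to 31.5 CPM in FO against 446 and 521 in control, and INHA at 30.3 to 166 against 251 and 270. SOX9 was at 213 to 281 in FO against 198 and 174. Schwann cell and neuron markers summed to 29.8 and 33.7 CPM in control and to 105 to 172 in FO and 106 to 161 in GF. Epithelial markers summed to 168 and 174 CPM in control, 282 to 473 in FO and 135 to 258 in GF. Most of the epithelial sum in control was KRT8, at 151 to 160 CPM there and 53.1 to 87.1 in GF. The other 6 epithelial genes summed to 13.9 to 17.1 CPM in control, 141 to 262 in FO and 82.0 to 171 in GF, so every graft lay above both controls. Lymphocyte, adipocyte and cartilage markers summed to at most 15.5, 76.3 and 109 CPM in any library. The cartilage marker COMP was at 0 in every control and FO library and at 6.22 to 108 CPM in GF. The adipocyte marker LEP was at 0 in every FO library and at 7.29 to 44.9 CPM in GF. In GF versus FO, 1 of 3 adipocyte markers and 1 of 1 cartilage marker tested were called higher, and 0 lower. Skeletal muscle markers reached 939 CPM in FO 1 and 303 in GF 3; without these libraries 5 of the 10 genes were called in GF versus FO, where 16.6% of all genes tested were, and the PDGFRA difference was -0.89.

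**Figure D5:**
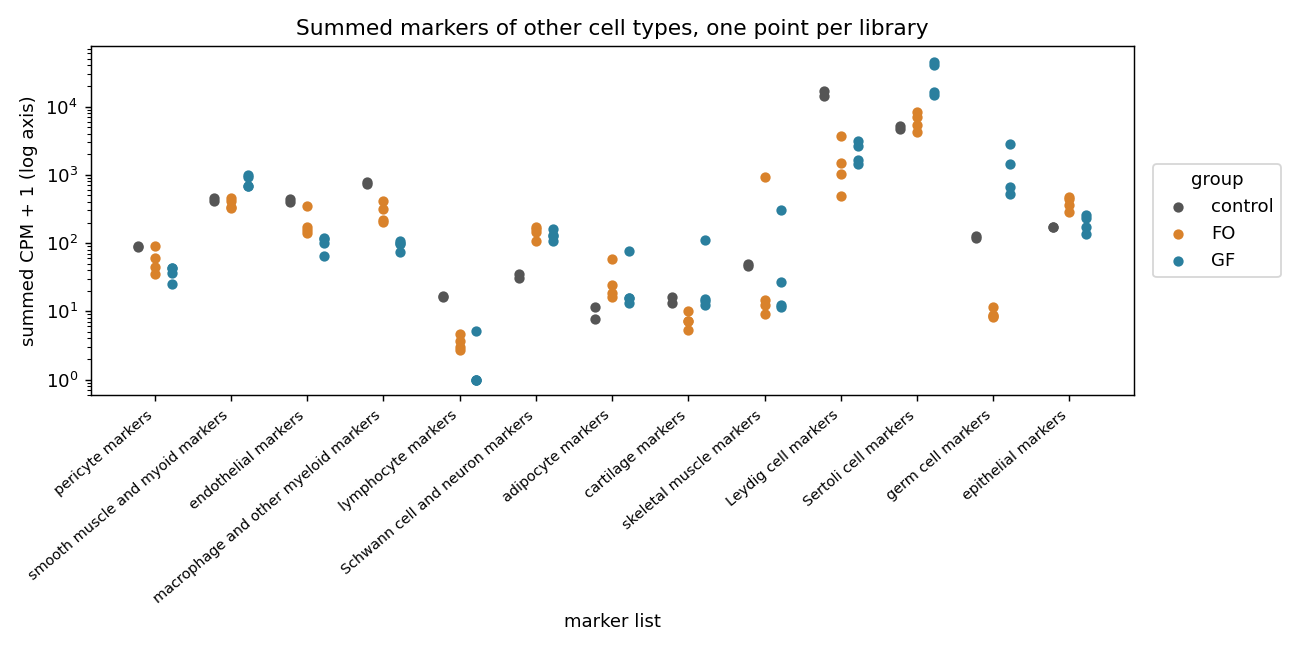
Summed CPM + 1 (y axis, log scale) of 13 marker lists (x axis) in each library, coloured by group. Myeloid and endothelial sums are highest in control and lowest in GF, germ cell sums are highest in GF, and the Sertoli sum, also highest in GF, is mostly CLU. The separation of FO from GF in the endothelial sum depends on EMCN.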

How the data were processed

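PolyA RNA of 10 libraries (2 control, 4 FO, 4 GF) was isolated with Trizol and prepared with a 3' end kit (QuantSeq), per the labels' protocols. The authors deposited whole-number counts per gene name, unnormalized. The submitters' processing notes name Sscrofa11.1 and DESeq2 1.42.0 without a role. For the aligner, counter and strand setting the sources used here give nothing. Each column was assigned by the letters and number it shares with a title, F being read as FO. RefSeq symbols of Sscrofa11.1 were found for 26836 of 27376 rows, and 26 rows carry a date in place of a name.

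The counts were filtered (filterByExpr, minimum count 10), scaled (TMM) and tested with edgeR 4.0.16 in R 4.3.3 (robust quasi-likelihood, Benjamini-Hochberg adjustment over all genes tested, adjusted p under 0.05, no fold threshold). GF versus FO used the 8 graft libraries; comparisons with control used all 10 in one fit. Likeness used log2 CPM (prior count 2). No 2 libraries of a group agreed within sampling noise. The methods were tested on simulated data. Alternatives were RLE or total-count scaling, no filter, DESeq2, a fold threshold of 1.5, thinning to the lowest total, a fit that is not robust, mitochondrial and haemoglobin genes left out, other libraries in the fit, a replicate block, and libraries left out.

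The members and the 20 lists (7 of related genes, 13 of cell type markers; 264 of 268 genes in the table) were chosen with earlier results of these data known. Genes named are the members, up to 3 called genes with the lowest p of each related list and comparison, and the 3 genes most like each member. A few genes that this rule selects are not reported here, though they count in their lists. Floors cover counting error only, whereas the SE and SD values include the spread between libraries.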

Additional observations from a re-analysis of the deposited data

Results flagged for a closer look

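BST1 in GF 1, at 8.14 CPM, stood far from the other GF libraries: the nearest, GF 2, was at 1.26 CPM and GF 3 and GF 4 were at 0, and the gap was 0.845 of the group's whole range. Among groups of this size, chance flags about 1 in 20, and 20 groups (10 genes in FO and in GF) were examined. Without GF 1, the log2 difference of BST1 between GF and FO was -5.67 in place of -3.54.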

How the results depend on the processing

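No value of the 10 genes that was called changed direction under any alternative run, and their values kept their side of the threshold in 214 of 220 alternative fits between FO and control and in 194 of 220 between GF and control. Genes called over the whole table were 4205 in GF versus FO, 2972 in FO versus control and 4091 in GF versus control. Against a fold of 1.5 these were 2456, 1833 and 2658. Without FO 1 and GF 3, GF versus FO gave 2312. With only the groups compared in the fit, FO versus control gave 6600 and GF versus control 2201, and without GF 3 and GF 4 FO versus control gave 6510. Leaving out each library in turn gave 796 to 3987 genes (fewest without control 2, 977 without control 1) and 2 to 4 of the 10 in FO versus control, and 1141 to 4729 genes (fewest without control 2, 1395 without control 1) and 3 to 8 of the 10 in GF versus control. Fewer libraries enter those fits. Total-count scaling raised the share of higher calls in GF versus FO from 57.5% to 69.1% and the median log2 difference of all genes from -0.02 to 0.13, and no member changed direction with it. At 3 counts, levels under 1.04 CPM could not be seen in GF 3 and GF 4.

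Whether the replicate numbers of FO and GF libraries mark pairs was not settled. Deviations of same-numbered libraries correlated at 0.055 to 0.218, all above 0, and others at -0.148 to 0.108. Of the 8 graft libraries, 4 correlated best with their own number. With a replicate block, 6, 4 and 5 of the 10 were called (6, 4 and 6 without it), over 4335, 3219 and 3282 genes. The block moved TCF21 to 1.04 in FO versus control and -2.19 in GF versus FO, and BST1 to 1.94 and -4.42. In the comparisons with control, the block also tied each control library to the grafts of the same number. That link between testis and grafts was not tested, so the block values against control rest on an assumed pairing.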
